A study of Homo sapiens with 8 samples.

Results

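The 8 genes described here encode the VHL ubiquitin ligase and the HIF transcription factors that are its best known substrates. They were chosen by symbol, from 61228 gene names in the count tables of 8 RNA-seq libraries: VHL, CUL2, ELOB, ELOC, RBX1, HIF1A, EPAS1 and ARNT. All 8 passed the filter on low counts and stand among the 21307 genes tested. The libraries came from 2 human lung cancer cell lines, both labelled wild type. H1975 is a lung adenocarcinoma line, and HCC44 is a non-small-cell lung cancer line. Each line received either the solvent DMSO or ACBI1 for 96 hours, and each of the 4 resulting groups held 2 replicate libraries. The labels give the dose as 1 mM, which is far above the doses usual for such compounds, so its unit is uncertain. No label says whether the replicates were separate cultures, so the p-values measure the spread between these libraries, which may be technical.

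ACBI1 is a bifunctional degrader: one end holds bromodomain proteins of SWI/SNF chromatin remodellers (SMARCA2, SMARCA4, PBRM1), and the other end is a ligand of VHL. In the cell, VHL is the substrate receptor of a cullin-RING ubiquitin ligase. ELOB and ELOC, the elongins B and C, link VHL to the scaffold CUL2, and the RING protein RBX1 brings the ubiquitin-loaded enzyme to the other end of the scaffold. When oxygen is present, prolyl hydroxylases of the EGLN family mark the alpha subunits HIF1A and EPAS1 (HIF-2 alpha), VHL binds the mark, and the subunits are degraded. When they are not degraded, they pair with ARNT (HIF-1 beta) and activate genes of glycolysis, angiogenesis and pH control. VHL ligands occupy the pocket that receives the hydroxylated proline. The data are transcript counts, and protein levels or stability were not measured.

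Transcripts of both HIF alpha subunits were lower with ACBI1 in H1975, by 2.32-fold for HIF1A and 1.68-fold for EPAS1. HIF1A was also lower in HCC44, by 1.39-fold, and its change differed between the lines. EPAS1 in HCC44 and ARNT in either line were not called. In the ligase, VHL and CUL2, the receptor and the scaffold, were called in neither line, ELOC fell in both lines, RBX1 fell in H1975 and ELOB in HCC44. Each of those ligase calls was a change of at most 1.29-fold and was lost under several other settings.

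Each library held 62467286 to 70455517 counts in genes. Levels are given as CPM, counts per unit of sequencing depth, scaled by TMM factors, which lay between 0.906 and 1.15. The markers of epithelium that were examined (EPCAM, CDH1, KRT7, KRT8, KRT18 and KRT19) were all detected in every group, with a summed level of 5137 to 5393 CPM in untreated and 2331 to 2808 CPM in treated H1975. In HCC44 the sums were 940 to 980 CPM with DMSO and 1199 to 1658 CPM with ACBI1. NKX2-1, a factor of lung epithelium, averaged 25.9 CPM in untreated and 22.5 CPM in treated H1975 and at most 0.0159 CPM in HCC44, and the surfactant genes SFTPA1 and SFTPC had no counts in either DMSO group. Markers of leukocytes and endothelium summed to at most 3.55 and 4.01 CPM in any library. The 5 fibroblast markers summed to 74.3 to 92.7 CPM in HCC44 DMSO and 207 to 411 CPM in HCC44 ACBI1, nearly all of it COL1A1, while DCN had no counts in any library. The part of these shifts in the results was not tested. In bulk RNA, fewer cells that express a gene and less RNA per cell cannot be told apart.

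The lines already differed in the ligase and in HIF before treatment. In the DMSO libraries 7 of 8 members were called between HCC44 and H1975, against 67.9% of all tested genes. VHL, CUL2, HIF1A and ARNT were higher in HCC44 (31.6% of all genes were) and ELOB, ELOC and RBX1 were lower (36.4% were). VHL was higher in HCC44, at 130 and 139 CPM in the 2 libraries against 100.6 and 101.5 CPM in H1975 (log2 fold change 0.41 ± 0.11 SE, adjusted p 0.006). CUL2 was also higher in HCC44, by 0.37 ± 0.11 on the log2 scale (adjusted p 0.0128). The small subunits went the other way. ELOB stood at 68.5 and 69.3 CPM in HCC44 and at 118 and 123 CPM in H1975, a difference of -0.81 ± 0.08 (adjusted p 5.95e-06). ELOC (-0.64 ± 0.11, adjusted p 0.000259) and RBX1 (-0.70 ± 0.12, adjusted p 0.000268) were lower in HCC44 as well. The call for CUL2 was lost with library totals (0.26), without H1975 DMSO replicate 1 (0.26) and without HCC44 DMSO replicate 2 (0.34).

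Among the HIF genes, HIF1A was higher in HCC44 by 0.69 ± 0.11 (adjusted p 0.000252) and ARNT by 0.68 ± 0.10 (adjusted p 6.97e-05). EPAS1 was at 309 and 353 CPM in HCC44 DMSO and at 295 and 352 CPM in H1975 DMSO. Those libraries overlap, and the difference of 0.03 had a 95% interval of -0.27 to 0.33 (adjusted p 0.842). Its sign turned with upper-quartile factors, with library totals and without H1975 DMSO replicate 1 or HCC44 DMSO replicate 2.

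**Figure D1:**
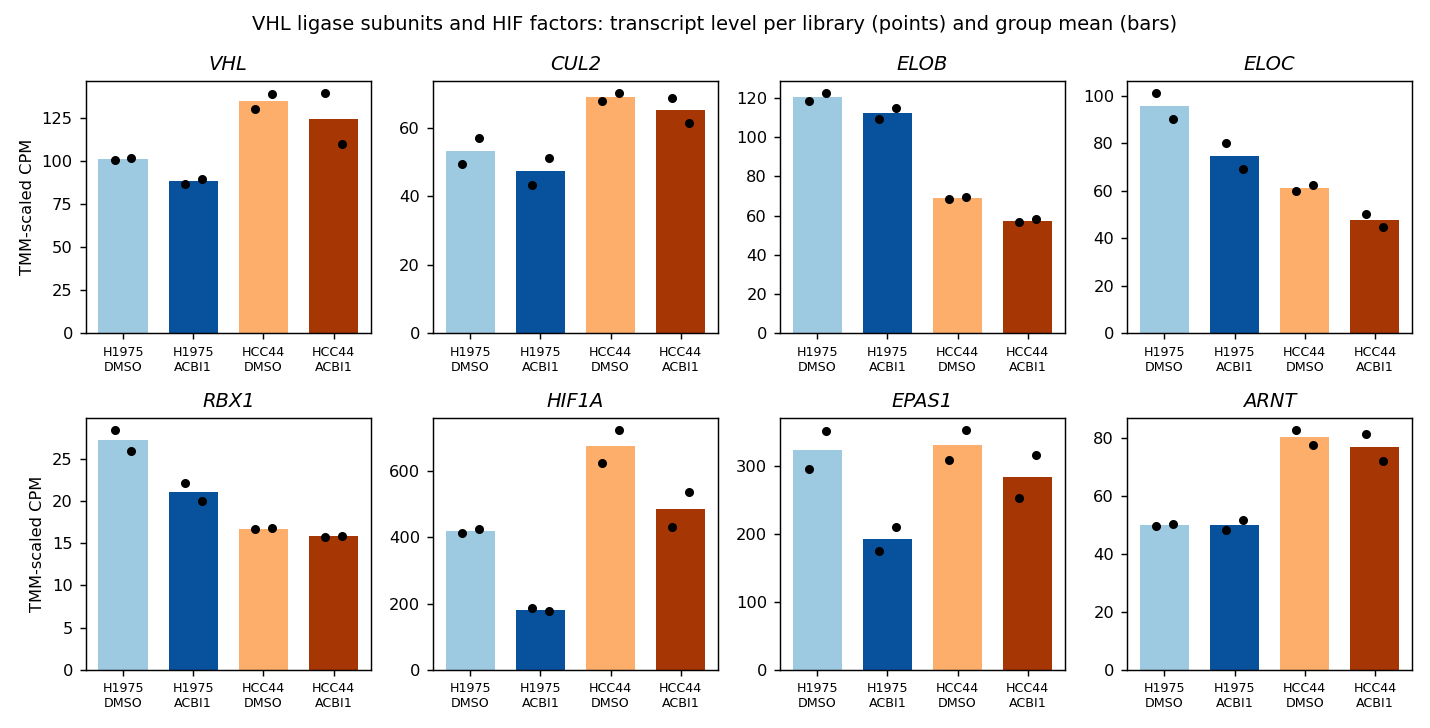
Transcript level of each of the 8 genes, in TMM-scaled CPM on a linear axis from 0, by line and treatment. Points are single libraries and bars are group means. HIF1A and EPAS1 show separate DMSO and ACBI1 points in H1975, and the 4 ARNT points of each line lie together.

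To compare the genes with each other, CPM was divided by the length of the union of a gene's annotated exons in kilobases. On this scale ELOB led in H1975 DMSO with 107 ± 2.6 CPM per kilobase (SD, n = 2), followed by HIF1A with 81.3 ± 1.9 and EPAS1 with 44.3 ± 5.5. VHL came next at 24 ± 0.15, then ELOC at 19.4 ± 1.6, CUL2 at 10.3 ± 1.1, RBX1 at 8.79 ± 0.57 and ARNT at 7.68 ± 0.06. No neighbours in that order had overlapping libraries. The adaptor ELOB was thus several times as abundant per length as the receptor and the scaffold, and ARNT was the least abundant member. With the longest transcript as the length, ELOC moved ahead of VHL and RBX1 ahead of CUL2 in H1975 DMSO.

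The same scale put HIF1A first in HCC44 DMSO, at 131 ± 14 CPM per kilobase, ahead of ELOB at 61.1 ± 0.48 and EPAS1 at 45.3 ± 4.3. VHL stood at 31.9 ± 1.4, CUL2 at 13.4 ± 0.32, ELOC at 12.4 ± 0.37, ARNT at 12.3 ± 0.57 and RBX1 at 5.41 ± 0.03. ELOC and ARNT overlapped, and no other neighbours did. With ACBI1 the order of the 6 most abundant genes in H1975 was as with DMSO, while RBX1 (6.82 ± 0.48) came below ARNT (7.66 ± 0.38). In HCC44 with ACBI1, ELOC (9.65 ± 0.78) came below ARNT (11.8 ± 1.0), and CUL2 and ARNT overlapped. These places depend on the length used: with the longest transcript, ELOC stood above ARNT in both HCC44 groups (22 against 16.4 CPM per kilobase with DMSO, 17.1 against 15.7 with ACBI1, where they overlapped), and RBX1 stood above ARNT in H1975 ACBI1 (11.3 against 10.2).

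In H1975, ACBI1 against DMSO gave 4 called members of 8, against 31.3% of all tested genes. All 4 were lower (ELOC, RBX1, HIF1A and EPAS1), where 16.7% of all genes were called lower and 14.6% higher. In HCC44, 3 of 8 were called, all lower (ELOB, ELOC and HIF1A), against 34.9% of all genes called, with 17.4% called lower and 17.5% higher. The HCC44 share of calls is near that of all genes. The median change of all tested genes was -0.01 in H1975 and 0.01 in HCC44 on the log2 scale. All 8 members had negative fold changes in both lines with TMM scaling. Values as low as that of ARNT, the member nearest 0, were found in 50.7% of all tested genes in H1975 and 43.4% in HCC44. Among genes at least as abundant as ARNT with DMSO, 3322 of 4794 in H1975 and 2126 of 3326 in HCC44 were as low, so negative values were common among such genes. But with library totals VHL, CUL2, ELOB and ARNT in H1975 and CUL2, RBX1 and ARNT in HCC44 turned positive. Library totals moved the median of all genes to 0.18 in H1975 and 0.09 in HCC44, so directions are relative to TMM scaling.

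**Figure D2:**
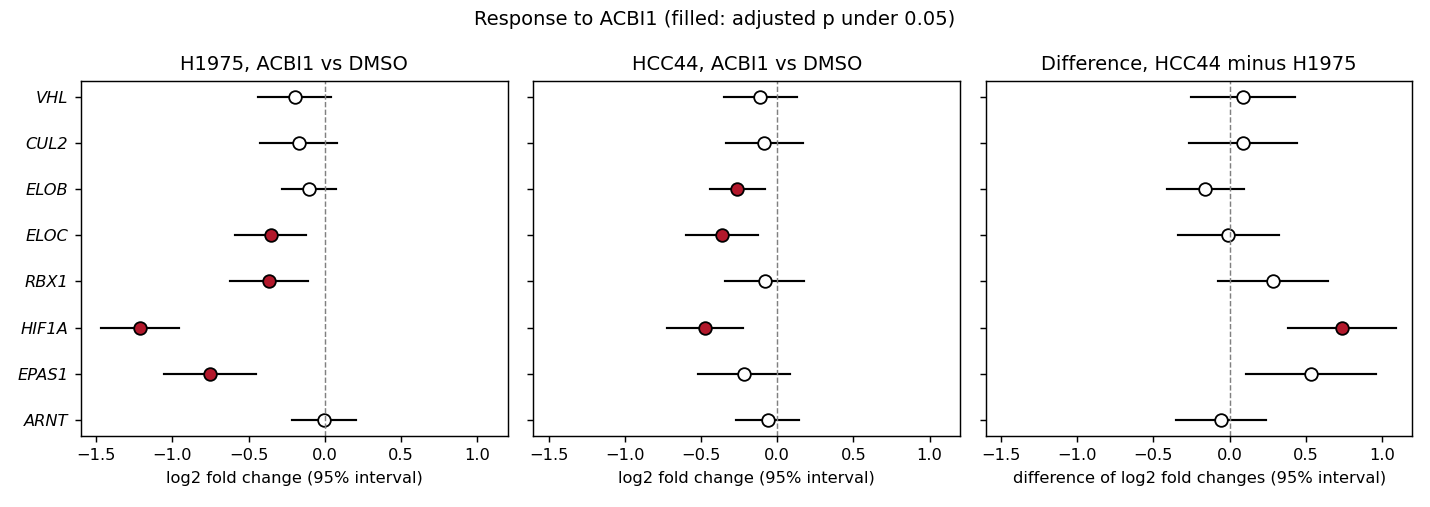
Log2 fold change of each gene with ACBI1 in H1975 (left) and HCC44 (middle), and the difference of the changes, HCC44 minus H1975 (right). Points are estimates, lines are 95% intervals, and filled points have an adjusted p under 0.05. The ELOC, RBX1, HIF1A and EPAS1 intervals lie below 0 in H1975, as do those of ELOB, ELOC and HIF1A in HCC44. HIF1A is the one filled point on the right.

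The substrate receptor VHL (chr3:10141008-10152220, plus strand, GRCh38) was at 100.6 and 101.5 CPM in the H1975 DMSO libraries and at 86.7 and 89.4 CPM with ACBI1. The groups did not overlap, yet the fold change of -0.20 ± 0.11 was not called (95% interval -0.44 to 0.04, adjusted p 0.197). In HCC44, VHL was at 130 and 139 CPM with DMSO and 139 and 110 CPM with ACBI1. The second ACBI1 library lay below the other 3. The fold change of -0.11 ± 0.11 was not called (interval -0.35 to 0.13), but it was called at -0.29 without HCC44 ACBI1 replicate 1 (adjusted p 0.0445) and was 0.05 without replicate 2. The closely related gene VHLL had 1 to 6 counts per library.

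The scaffold CUL2 (chr10:35008551-35090642, minus strand) had 49.4 and 57.1 CPM in untreated H1975 and 43.3 and 51.2 CPM after ACBI1. In HCC44 it had 67.8 and 70.1 CPM with DMSO and 68.6 and 61.5 CPM with ACBI1. Groups overlapped in both lines. Fold changes were -0.17 ± 0.11 in H1975 (interval -0.42 to 0.08) and -0.08 ± 0.11 in HCC44 (interval -0.33 to 0.17). The ratio of VHL to CUL2 per length was between 2.13 and 2.49 in all 8 libraries, so receptor and scaffold transcripts kept nearly the same proportion in both lines and treatments.

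The adaptor ELOC (chr8:73939169-73972287, minus strand), which binds both VHL and CUL2, fell in both lines. In H1975 it went from 101 and 90 CPM to 80.2 and 69.3 CPM (-0.35 ± 0.11, adjusted p 0.0266), and in HCC44 from 59.9 and 62.5 CPM to 50.3 and 44.9 CPM (-0.36 ± 0.11, adjusted p 0.0222). ACBI1 libraries lay below both DMSO libraries in each line. Between the lines the changes differed by -0.01, with an interval of -0.34 to 0.32. In each line 12 of 17 alternative settings kept the call. In H1975 it was lost with upper-quartile factors, library totals and without either DMSO library or ACBI1 replicate 2. In HCC44 it was lost under the same 2 scalings and without either DMSO library or ACBI1 replicate 2. The tables list 34 ELOC pseudogenes with 4 to 30 counts in all per library, at most 0.946% of the ELOC count. Reads that fit several copies equally well may have been left out of the ELOC count, which is uncertain in that respect.

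The second elongin, ELOB (chr16:2771414-2777297, minus strand), was at 118 and 123 CPM in untreated H1975 and at 109 and 115 CPM after ACBI1, which was not called (-0.10 ± 0.08, interval -0.28 to 0.08). In HCC44 it fell from 68.5 and 69.3 CPM to 56.8 and 58.1 CPM (-0.26 ± 0.08, adjusted p 0.0282). The HCC44 groups did not overlap and their replicates lay close together. That call was kept in 6 of 17 alternatives. It was lost with DESeq2 (adjusted p 0.0511), with 2 scalings, without a filter, with HCC44 fitted alone and without any of the 4 HCC44 libraries or either H1975 ACBI1 library. The lines' changes differed by an amount that was not called (-0.16, interval -0.41 to 0.09). ELOB shares 190 exon bases, 16.8% of its exon length, with SRRM2 on the opposite strand. One summary row of the counts, 4.98 to 5.42% of each library, holds reads that fell on several genes. Because the strand setting is not given, it is not known whether reads there were counted for ELOB or set aside in that row. SRRM2 was far more abundant and had fold changes of -0.32 ± 0.11 in H1975 (adjusted p 0.041) and -0.13 ± 0.11 in HCC44 (adjusted p 0.372). Its part in the ELOB values was not tested.

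RBX1 (chr22:40951347-40973309, plus strand), the RING subunit shared by most cullin ligases, fell in H1975 from 28.4 and 25.9 CPM to 22.1 and 20 CPM (-0.37 ± 0.12, adjusted p 0.0332). In HCC44 it was at 16.7 and 16.8 CPM with DMSO and 15.7 and 15.9 CPM with ACBI1 (-0.08 ± 0.12, interval -0.34 to 0.17). The small HCC44 shift separated the libraries but was not called. The difference between the lines was 0.28 ± 0.16 and was not called (adjusted p 0.268). The H1975 call held in 9 of 17 alternatives and was lost with RLE, upper-quartile and library-total scaling, without a filter and without any of the 4 H1975 libraries. Its 2 listed pseudogenes held 2 to 14 counts in all per library, at most 1.31% of the RBX1 count.

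HIF1A, the alpha subunit present in most cell types, had the largest change of the 8 genes. It lies on the plus strand at chr14:61695513-61748259 and has 17 exon blocks in GENCODE 29. In H1975 its level was 412 and 426 CPM with DMSO and 185 and 176 CPM with ACBI1. The ACBI1 libraries were close together and far below both DMSO libraries. The fall was -1.21 ± 0.12 on the log2 scale (interval -1.47 to -0.96, adjusted p 5.48e-05), or 56.8%. It was called in all 17 alternatives, between -1.24 and -1.01. Of the 283 tested genes at least as abundant as HIF1A in H1975 DMSO, 21 had a fold change as low, HIF1A included. The same count for the other called members in H1975 gave 83 of 425 for EPAS1, 815 of 2469 for ELOC and 1793 of 7185 for RBX1. In HCC44, against HCC44 DMSO levels, it gave 33 of 177 for HIF1A, 1269 of 4292 for ELOC and 1511 of 3862 for ELOB.

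In HCC44, HIF1A went from 625 and 725 CPM to 432 and 538 CPM. The groups did not overlap, but the replicates of each lay about as far apart as the nearest DMSO and ACBI1 libraries. The fall was -0.48 ± 0.11 (interval -0.73 to -0.23, adjusted p 0.00762), or 28.1%. Without HCC44 DMSO replicate 2 it was -0.36 (adjusted p 0.0901) and without HCC44 ACBI1 replicate 1 it was -0.33 (adjusted p 0.0519), so 15 of 17 alternatives kept the call. Even after treatment, both HCC44 libraries stood above both untreated H1975 libraries, but the nearest were close, at 432 against 426 CPM. That comparison was not tested.

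The response of HIF1A differed between the lines by 0.74 ± 0.16 on the log2 scale (HCC44 minus H1975, interval 0.38 to 1.09, adjusted p 0.0103). It was the 1 member of 8 called in that comparison, against 18.6% of all tested genes, of which 10.2% had a positive and 8.4% a negative called difference. The difference was called in 15 of 16 alternatives and lost without HCC44 DMSO replicate 1 (0.63, adjusted p 0.056).

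Other transcripts overlap HIF1A. Antisense HIF1A-AS1 and the same-strand AL137129.1 cover 5.14% of its exon bases. HIF1A-AS1 had at most 1.13 CPM in any library. HIF1A-AS3, which RefSeq places over the gene, rose in H1975 from 19.5 and 27.9 CPM to 32.8 and 39.2 CPM (0.61 ± 0.17, adjusted p 0.0199), while HIF1A fell. In HCC44 it was at 0.640 to 0.721 CPM. Without the strand setting, it is not known whether reads where HIF1A and its antisense RNAs overlap were separated by strand or set aside as falling on several genes.

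EPAS1 (chr2:46293667-46386703, plus strand), the alpha subunit known for high expression in endothelium and lung, was at 295 and 352 CPM in untreated H1975 and at 175 and 209 CPM after ACBI1. Both ACBI1 libraries lay below both DMSO libraries. The fall was -0.75 ± 0.14 (interval -1.05 to -0.45, adjusted p 0.00234), or 40.6%, and it was called in all 17 alternatives, between -0.88 and -0.55. In HCC44, EPAS1 was at 309 and 353 CPM with DMSO and 253 and 315 CPM with ACBI1. Those groups overlapped, and the change of -0.22 ± 0.14 was not called (interval -0.52 to 0.08, adjusted p 0.245). It was -0.07 without HCC44 ACBI1 replicate 1 and -0.39 without HCC44 ACBI1 replicate 2. The difference between the lines was 0.53 ± 0.19 (interval 0.11 to 0.96), which missed the threshold after adjustment (adjusted p 0.0799). It was called in 3 of 16 alternatives and ranged from 0.35, without H1975 DMSO replicate 2, to 0.69, without HCC44 ACBI1 replicate 1 (adjusted p 0.28 and 0.0311).

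ARNT (chr1:150809705-150876768, minus strand), the constitutive partner, was at 49.8 and 50.3 CPM in untreated H1975 and 48.1 and 51.7 CPM after ACBI1. HCC44 held 82.9 and 77.7 CPM with DMSO and 81.4 and 72.3 CPM with ACBI1. Treated and untreated libraries overlapped in both lines. The fold changes were -0.00 ± 0.09 in H1975 (interval -0.21 to 0.21) and -0.06 ± 0.09 in HCC44 (interval -0.27 to 0.14), so changes as large as those of HIF1A in either line lie outside the intervals of ARNT. With library totals the ARNT value in H1975 was 0.20 and was not called.

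Levels of the alpha subunits relative to their partner shifted accordingly. HIF1A plus EPAS1 per length stood at 15.8 and 16.9 times ARNT in the H1975 DMSO libraries and at 8.11 and 7.93 times with ACBI1. In HCC44 the ratios were 12.9 and 15.9 with DMSO and 9.49 and 13.3 with ACBI1, which overlap. The ratio of HIF1A to EPAS1 was 1.98 and 1.72 in H1975 DMSO and 1.502 and 1.193 with ACBI1. It was 2.87 and 2.91 in HCC44 DMSO and 2.42 and 2.42 with ACBI1. Per length, HIF1A exceeded EPAS1 in all 8 libraries, and the ACBI1 libraries had the lower ratios in each line. These ratios do not depend on the scaling of a library. They are given without a test.

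**Figure D3:**
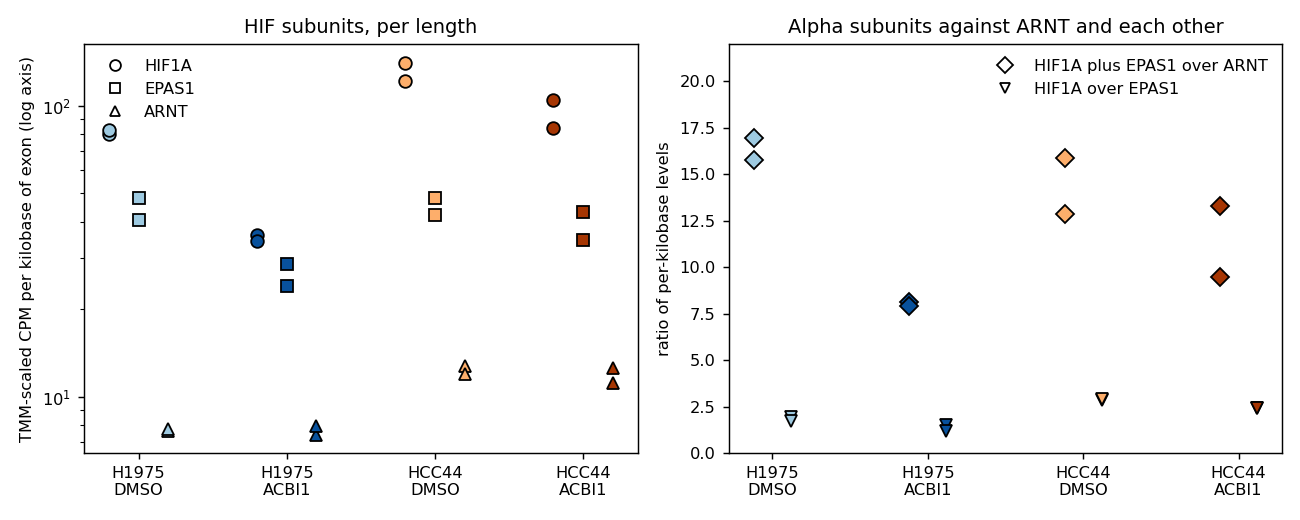
Left, level of HIF1A, EPAS1 and ARNT in each library, in TMM-scaled CPM per kilobase of exon on a log axis. Right, the ratio of the summed alpha subunits to ARNT and of HIF1A to EPAS1 in each library; the H1975 ACBI1 libraries sit near 8 on the first ratio and the H1975 DMSO libraries near 16 to 17.

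Because the 2 alpha subunits both fell in H1975, the 250 bases before a RefSeq start of each are shown, for HIF1A the first of its 2 listed starts (RefSeq, GRCh38.p14, plus strand, 5′ to 3′). Capitals mark GCGTG, one form of the core motif that HIF dimers bind. The HIF1A window is chr14:61695263-61695512 and the EPAS1 window is chr2:46297157-46297406.
HIF1A: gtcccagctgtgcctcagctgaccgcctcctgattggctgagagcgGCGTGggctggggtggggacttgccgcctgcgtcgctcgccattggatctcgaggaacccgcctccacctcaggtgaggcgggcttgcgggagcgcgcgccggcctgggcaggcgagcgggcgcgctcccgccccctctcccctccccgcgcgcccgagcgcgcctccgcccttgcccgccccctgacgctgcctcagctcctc
EPAS1: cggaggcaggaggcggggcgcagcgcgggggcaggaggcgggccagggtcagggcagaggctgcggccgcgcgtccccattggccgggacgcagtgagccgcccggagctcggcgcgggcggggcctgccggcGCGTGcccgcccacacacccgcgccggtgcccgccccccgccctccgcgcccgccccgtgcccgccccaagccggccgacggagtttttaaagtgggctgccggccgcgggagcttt

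Both windows shown are rich in G and C, at 75.6% for HIF1A and 80.8% for EPAS1, where the median of 35116 RefSeq promoters of the same length was 58%. Each holds 1 GCGTG on the strand shown or its complement, starting 204 bases before the RefSeq start of HIF1A and 117 bases before that of EPAS1. ACGTG, the other form searched, occurs in neither. One of these forms, on either strand, is present in 43.2% of all promoters, so its presence is common. TGANTCA, the motif of AP-1 factors, occurs in neither window and in 6.57% of promoters. The second HIF1A window (chr14:61697462-61697711) holds 31.2% G and C and none of the 3 motifs, and the ARNT window holds none of them either. RBX1 has 3 ACGTG matches, of which those at 117 and 116 bases are the opposite strands of 1 CACGTG, and 1 GCGTG match. ELOB has 2 GCGTG matches, and the 3 CUL2 windows have no match to either form. VHL and ELOC have no entry in the promoter table.

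The members' patterns were also compared with all genes of at least 5 CPM on average, by Pearson's r over the 8 libraries on log2(CPM + 1) after each line's mean was removed. The libraries share the same contrast, so many genes correlate highly, and no p is given. Among 11659 genes, KHSRP (0.998), HNMT (0.997) and TRIM2 (0.996) were most like HIF1A. ATXN1 (0.992), KAT6B (0.991) and TOX2 (0.990) were most like EPAS1. For ELOC the closest were UFD1 (0.996), CCNK (0.990) and GPATCH2L (0.990). For ELOB they were NUBP2 (0.997), DBT (0.995) and EYA3 (0.995), and for RBX1 ANXA8 (0.990), WIPF1 (0.990) and RPGRIP1L (0.989). Within the set, HIF1A was most like EPAS1 (0.94) and RBX1 (0.92) and had an r of -0.02 with ARNT. The likeness is of shape and not of size: KHSRP changed by -0.27 in H1975, against -1.21 for HIF1A.

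For the other genes of the pathway, where not all 17 alternative settings kept a call within a line, the number that did is given, or the library whose omission ended it. Losses came mainly with another scaling or on leaving out 1 library. The counts called in each list stand beside the shares over all tested genes. These were 14.6% higher and 16.7% lower in H1975, and 17.5% higher and 17.4% lower in HCC44. The genes that hydroxylate HIF and the remaining HIF subunits formed a list of 7. In H1975, 2 rose, 2 fell and 3 were not called, with a median of -0.25. In HCC44, 1 rose and 6 were not called, with a median of 0.28. EGLN1, the main prolyl hydroxylase that marks HIF for VHL, rose in H1975 from 38.4 ± 3.8 to 48.4 ± 1.6 CPM (0.33 ± 0.11, adjusted p 0.043) and in HCC44 from 24.9 ± 1.3 to 32.7 ± 2.7 CPM (0.39 ± 0.11, adjusted p 0.0199). Those calls held in 12 and 14 of 17 alternatives. EGLN3, an inducible hydroxylase, was not called (0.13 in H1975 and 0.56 in HCC44, adjusted p 0.682 and 0.0709). EGLN2 was low, at 0.310 to 3.63 CPM, was not called and shares 30.6% of its exon bases with other annotated genes, among them a read-through with RAB4B. HIF1AN, the asparaginyl hydroxylase that blocks coactivator binding, fell in H1975 (-0.25 ± 0.09, adjusted p 0.049), a call kept in 5 of 17 alternatives (-0.15 without H1975 DMSO replicate 2), and had -0.10 in HCC44. The transmembrane hydroxylase P4HTM rose in H1975 from 64.7 ± 3.4 to 92.1 ± 2.7 CPM (0.51 ± 0.10, adjusted p 0.00352, all 17 alternatives) and missed the threshold in HCC44 (0.28, adjusted p 0.0502).

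ARNT2, the paralogue of ARNT, had the largest change of this list. It had 250 and 425 counts in the H1975 DMSO libraries and 55 and 31 with ACBI1, a fall of -3.11 ± 0.40 (adjusted p 0.000358) that all 17 alternatives kept. In HCC44 it had 125 and 87 counts with DMSO and 122 and 64 with ACBI1 (-0.18 ± 0.38, adjusted p 0.764). The response differed between the lines by 2.93 ± 0.55 (adjusted p 0.00545). At 3.88 and 6.29 CPM in H1975 DMSO it was far below ARNT in every library. HIF3A had 29 counts in H1975 DMSO, 20 in H1975 ACBI1 and none in HCC44.

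Of 4 HIF coactivators and their competitors, 3 fell in H1975 and 1 in HCC44, with medians of -0.35 and -0.21. CITED2, which competes with HIF for EP300 and CREBBP and is itself a HIF target, fell in H1975 from 89.1 ± 10 to 34.4 ± 4.9 CPM (-1.37 ± 0.25, adjusted p 0.00561). In HCC44 it went from 90.1 ± 35 to 44.6 ± 6.0 CPM (-1.01 ± 0.25, adjusted p 0.0167). The HCC44 DMSO libraries were at 115 and 65.3 CPM, and the call was lost without either ACBI1 library. The value was -0.56 without HCC44 DMSO replicate 1 and -1.36 without replicate 2. In H1975 it was lost without DMSO replicate 2 or either ACBI1 library. The acetyltransferase CREBBP fell in H1975 (-0.38 ± 0.11, adjusted p 0.0246, 11 of 17 alternatives, -0.19 without H1975 DMSO replicate 2) and was not called in HCC44 (-0.10).

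Other receptors use the CUL2 scaffold. Of 12 listed, 2 rose and 4 fell in H1975 (median -0.14), and 2 rose and 2 fell in HCC44 (median -0.08). FEM1C, which recognises C-terminal degrons, fell in H1975 from 31.3 ± 2.8 to 17.6 ± 1.6 CPM (-0.83 ± 0.12, adjusted p 0.000658) and in HCC44 from 25.9 ± 1.6 to 18.4 ± 0.18 CPM (-0.49 ± 0.12, adjusted p 0.00927). All 17 alternatives kept the H1975 call, and 16 kept that in HCC44, which was lost without HCC44 DMSO replicate 2. Its paralogue FEM1B fell in H1975 (-0.38, 14 of 17 alternatives). LRR1 rose by 0.39 in H1975 and 0.38 in HCC44 (13 and 14 alternatives), and ZYG11A by 0.36 in H1975, a call kept in 9 alternatives. LRR1 shares 26.7% of its exon bases with other annotated genes, RPS29 and RHOQP1. KLHDC10 fell in HCC44 from 127 ± 3.0 to 93 ± 2.2 CPM (-0.45 ± 0.09, adjusted p 0.00242) and was at 0.04 in H1975, a tested difference of -0.48 ± 0.12 (adjusted p 0.02).

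Among 7 other cullins and RNF7, 2 rose and 1 fell in each line, with medians of 0.00 and -0.06. CUL4B, the scaffold of DDB1 ligases, rose in HCC44 from 55.5 ± 0.05 to 92.7 ± 12 CPM (0.74 ± 0.12, adjusted p 0.000791) and was not called in H1975 (-0.23 ± 0.12). That difference of 0.97 ± 0.17 was called (adjusted p 0.00336). Its paralogue CUL4A rose in HCC44 too (0.46, adjusted p 0.00252), and CUL3 fell there (-0.36, adjusted p 0.00931, 15 alternatives). In H1975 the calls were smaller: CUL7 at 0.40, CUL9 at 0.35 and CUL1 at -0.23, kept in 11, 12 and 6 of 17 alternatives. Without H1975 ACBI1 replicate 2, CUL7 and CUL9 were both at 0.21.

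The conjugation of NEDD8 to cullins switches these ligases on. Of 14 genes of neddylation and cullin exchange, 2 rose and 2 fell in H1975 (median -0.12), and 1 rose and 3 fell in HCC44 (median -0.06). The 4 called in each line were not above the share of all tested genes. UBE2M, the NEDD8-conjugating enzyme that serves RBX1-bound cullins such as CUL2, rose in H1975 from 273 ± 6.3 to 387 ± 9.6 CPM (0.50 ± 0.08, adjusted p 0.00103) and was at 0.06 in HCC44. UBE2F, which serves RNF7-bound CUL5, fell in HCC44 from 10.5 ± 0.23 to 4.94 ± 0.24 CPM (-1.09 ± 0.14, adjusted p 0.000238). In H1975 UBE2F was at -0.43, a call kept in 7 of 17 alternatives. It shares 16.2% of its exon bases with the annotated gene UBE2F-SCLY. GLMN, which binds RBX1 and blocks it, rose by 0.42 in H1975 and 0.37 in HCC44, kept in 11 and 9 alternatives. CAND1, the exchange factor, fell in H1975 (-0.29, 9 alternatives), and DCUN1D2 fell in HCC44 (-0.58 ± 0.13, all 17).

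The COP9 signalosome removes NEDD8. Of its 10 genes, 1 rose and 3 fell in H1975 (median -0.20) and 3 fell in HCC44 (median -0.21). COPS8 fell in HCC44 from 54.5 ± 1.0 to 38.7 ± 4.1 CPM (-0.49 ± 0.10, adjusted p 0.0032) and in H1975 by a smaller amount (-0.31, 7 of 17 alternatives). COPS9 fell in HCC44 (-0.41, 13 alternatives) and COPS3 in H1975 (-0.30, 9 alternatives). COPS7A rose in H1975 from 58.4 ± 2.7 to 81.3 ± 6.5 CPM (0.48 ± 0.10, adjusted p 0.0055, 16 alternatives, lost without H1975 ACBI1 replicate 2) and was at -0.25 in HCC44. Of 6 ubiquitin-conjugating and ARIH enzymes, 1 rose and 1 fell in H1975 and 2 fell in HCC44, with a median of -0.11 in each line. UBE2D3 fell in HCC44 (-0.41, all 17 alternatives) and in H1975 (-0.29, 9 alternatives), UBE2D2 fell in HCC44 (-0.28, 11 alternatives) and CDC34 rose in H1975 (0.30, 12 alternatives).

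VHL has substrates and partners besides HIF. Of 7 listed, 6 were tested, and ZHX2, a hydroxylation-dependent VHL substrate, fell in both lines. In H1975 it went from 57.8 and 69.5 CPM to 31.7 and 35.6 CPM (-0.92 ± 0.13, adjusted p 0.000469), and in HCC44 from 63.6 and 61.6 CPM to 29.6 and 36.3 CPM (-0.93 ± 0.13, adjusted p 0.000307). Both calls held in all 17 alternatives, and the difference between the lines was -0.01 ± 0.18. USP20, a deubiquitinase that VHL binds, fell in HCC44 from 77 ± 2.0 to 42.1 ± 1.1 CPM (-0.87 ± 0.09, adjusted p 5.33e-05) and was at 0.22 in H1975, a difference of -1.09 ± 0.13 (adjusted p 0.000427). NDRG3 rose in HCC44 (0.62 ± 0.10, adjusted p 0.000682). The medians of the list were -0.01 and -0.12.

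**Figure D4:**
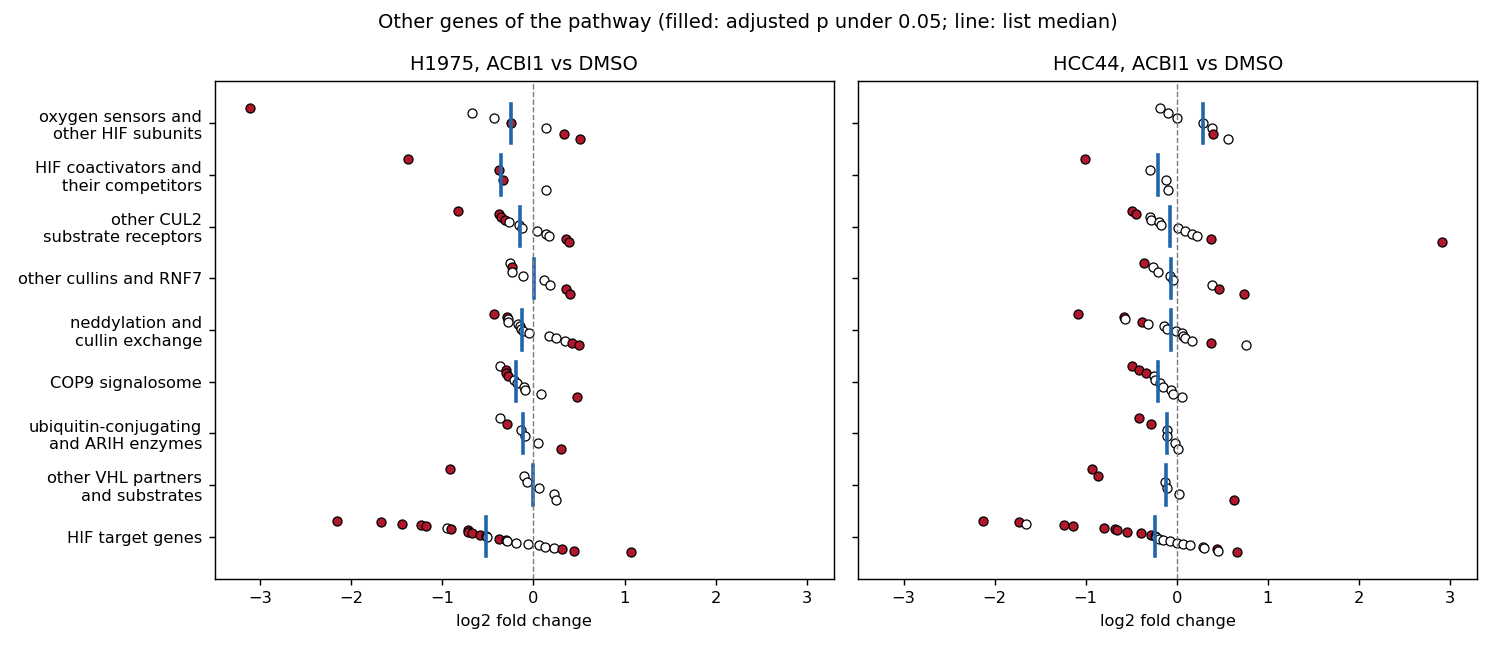
Log2 fold change with ACBI1 of each tested gene of the 9 pathway lists, in H1975 (left) and HCC44 (right). Filled points have an adjusted p under 0.05 and blue lines are list medians. ARNT2 is the point near -3.1 in H1975, and the point near 2.9 in HCC44 is PRAME, which had at most 0.191 CPM on average in that line and was picked out here after its value was seen.

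Of 24 textbook HIF target genes, 3 rose and 13 fell in H1975 (median -0.52), and 2 rose and 11 fell in HCC44 (median -0.23). Among those that fell in at least 1 line, ALDOA, DDIT4 and CA9 share 53.5%, 41.2% and 38.5% of their exon bases with other annotated genes. VEGFA, the angiogenic factor, fell in H1975 from 526 ± 7.0 to 165 ± 20 CPM (-1.68 ± 0.10, adjusted p 4.48e-06) and in HCC44 from 306 ± 16 to 194 ± 8.9 CPM (-0.66 ± 0.10, adjusted p 0.000503). NDRG1 fell by 2.16 and by 1.14 on the log2 scale. Both genes, like HIF1A, changed less in HCC44, with tested differences of 1.02 ± 0.14 and 1.02 ± 0.17 (adjusted p 0.00105 and 0.00246). Some differences had the opposite sign. P4HA2, a collagen prolyl hydroxylase, fell in HCC44 from 101 ± 3.9 to 30.3 ± 1.7 CPM (-1.73 ± 0.09, adjusted p 7.41e-07) and by 0.38 in H1975 (13 alternatives, difference -1.35 ± 0.13, adjusted p 0.000124). BNIP3, a mitophagy receptor, fell in HCC44 (-1.24 ± 0.10, adjusted p 1.54e-05) and was at -0.19 in H1975. ANGPTL4 rose in both lines, by 1.07 ± 0.17 and 0.66 ± 0.17 (adjusted p 0.00105 and 0.0115), calls kept in 17 and 14 alternatives. PFKFB3, a glycolytic regulator, rose in H1975 (0.45 ± 0.09, adjusted p 0.00321, all 17), and its fall in HCC44 (-0.24 ± 0.09, adjusted p 0.0488) was kept in 2 alternatives. The carbonic anhydrase CA12 rose in HCC44 (0.44 ± 0.13, adjusted p 0.024, 14 alternatives, 0.27 without HCC44 ACBI1 replicate 2) and was at -0.06 in H1975. When the H1975 change was subtracted from the HCC44 change, 7 of the 24 targets were called positive and 4 negative. The median difference was 0.28, against 0.04 for all tested genes, and 8 of the 24 values lay below 0.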

How the data were processed

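The authors deposited 1 table of read counts per gene for each of 8 libraries (4 groups of 2). The submitters' processing notes name TopHat2 2.1.1, HTSeq 0.11.0 and hg38; the annotation and the strand setting of the counting are not given in the sources used here. Between 14.3 and 15.8% of each table lay in 5 summary rows, which were left out. Genes passing edgeR's filterByExpr numbered 21307. Main tests were two-sided quasi-likelihood F-tests in edgeR 4.0.16 (R 4.3.3) with TMM factors and robust dispersion, in a single model of 4 group means over all libraries, with 4 residual degrees of freedom. Benjamini-Hochberg adjustment ran over all tested genes, and an adjusted p under 0.05 was a call. Adjusted p-values in the text are from that test unless another tool is named. Standard errors were derived from the fold change and its F statistic, and intervals are 95%. The common biological coefficient of variation was 0.123. No 2 replicates were copies of each other (chi-square per degree of freedom 22.7 to 45.9).

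Exon lengths, positions and overlaps came from GENCODE 29 (GRCh38) and promoters from RefSeq. CPM values are deposited counts rescaled to the TMM-adjusted library size; every ± beside a CPM is an SD over 2 libraries, and beside a fold change an SE. All 8 members and all 7 oxygen sensors and other subunits are named; from each other list, up to 2 largest rises and 2 largest falls per line among called genes that averaged 5 CPM or more in one of its groups, and for each called member the 3 most alike genes. The members and the 9 lists (92 genes) were chosen with earlier results of these data known. The procedure was tested on simulated counts. Alternatives were DESeq2 1.42.0, RLE and upper-quartile factors, library totals, no filter, 1 CPM in 2 libraries, non-robust dispersion, a replicate block, lines fitted alone and each library left out, 17 per comparison (16 for the difference).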

Additional observations from a re-analysis of the deposited data

Results flagged for a closer look

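Each result here was picked out because its response to ACBI1 differed between the lines by the interaction test in edgeR (adjusted p under 0.05 over all tested genes). Values are differences of log2 fold changes, HCC44 minus H1975. HIF1A differed by 0.74 ± 0.16 (SE, adjusted p 0.0103), with falls of different size in the 2 lines. ARNT2 differed by 2.93 ± 0.55, VEGFA by 1.02 ± 0.14 and NDRG1 by 1.02 ± 0.17, all with the larger fall in H1975. CUL4B differed by 0.97 ± 0.17, called as a rise in HCC44 and not called in H1975.

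The negative differences included P4HA2 at -1.35 ± 0.13, which fell more in HCC44, and USP20 at -1.09 ± 0.13 and BNIP3 at -1.04 ± 0.14, which fell in HCC44 and were not called in H1975. DCUN1D2 differed by -0.75 ± 0.18, COPS7A by -0.72 ± 0.15, PFKFB3 by -0.69 ± 0.12 and UBE2F by -0.65 ± 0.20. CUL9 differed by -0.56 ± 0.16, KLHDC10 by -0.48 ± 0.12 and UBE2M by -0.44 ± 0.11. The calls for ARNT2, CUL4B, COPS7A, USP20, PFKFB3, NDRG1, VEGFA, P4HA2 and BNIP3 held in all 16 alternatives. Those for DCUN1D2, KLHDC10, UBE2M, CUL9 and UBE2F held in 12, 12, 11, 11 and 8 of them.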

How the results depend on the processing

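The number of members called in H1975 was 4, and 2 when scaled by upper quartiles or by library totals. Leaving out 1 library at a time gave 2 to 4. In HCC44 it was 3, and 1 with each of those scalings, with 0 to 3 when 1 library was left out; without HCC44 DMSO replicate 2 edgeR called none. In the difference between the lines it was 1, and 2 without a filter and with the replicate block, with 0 to 2 over left-out libraries. Between the DMSO groups it was 7, with 6 to 7. Where 1 library was left, it was assumed to vary like the other groups. Fewer genes in all were also called within a line when 1 of its own libraries was left out, so the loss was not particular to the members. Of all tested genes, 3556 were called lower in H1975, against 2922 with upper quartiles and 2080 with library totals. In HCC44 these numbers were 3718, 3259 and 2964.

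Signs turned where values were near 0. With library totals VHL, CUL2, ELOB and ARNT in H1975 were 0.0043, 0.030, 0.10 and 0.20, CUL2, RBX1 and ARNT in HCC44 were 0.0082, 0.0081 and 0.028, the differences for VHL and CUL2 were -0.022 and -0.022, and EPAS1 between the DMSO groups was -0.084. With upper-quartile factors ARNT in H1975 was 0.068 and EPAS1 between the DMSO groups was -0.038. ARNT in H1975 was 0.030 with DESeq2 and with RLE factors and 0.017 with the 1 CPM filter, and the ELOC difference was 0.0001 without a filter. Over left-out libraries, ARNT ranged from -0.033 to 0.081 in H1975, from -0.15 to 0.021 in HCC44 and from -0.14 to 0.027 in the difference, VHL from -0.29 to 0.053 in HCC44 and from -0.090 to 0.25 in the difference, the differences for CUL2 and ELOC from -0.071 to 0.19 and from -0.13 to 0.075, and EPAS1 between the DMSO groups from -0.096 to 0.21. HIF1A and EPAS1 in H1975 were called in all 17 alternatives. Few counts limit the values of HIF3A, VHLL and EGLN2, the last with 21 to 231 counts per library. ARNT2 with ACBI1 was low too, at 31 to 122 counts. Whether depth or reads set aside for overlapping genes kept the EGLN2 counts low was not tested.

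By their labels, same-numbered libraries share a number alone, yet their deviations from group means correlated at 0.64 in H1975 and 0.22 in HCC44. What they shared is not given. The replicate block raised the calls over all tested genes in H1975 from 3107 higher and 3556 lower to 4273 and 4830. In HCC44 they went from 3720 and 3718 to 4749 and 4784. With the replicate block 4 members were called in HCC44, EPAS1 joining at -0.22 (adjusted p 0.0173), and EPAS1 joined HIF1A in the difference at 0.53 (adjusted p 0.00191). List counts of called genes moved by over 1.5 times, or to or from 0, in 100 cases and did not in 503. For HIF targets the count, 16 in H1975 and 13 in HCC44, ranged from 10 to 19 and from 7 to 16.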
